A study of Homo sapiens with 8 samples.

Results

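The SAGA and ATAC coactivator complexes were represented by 20 genes and 80 guides in a genome-wide CRISPR screen that read Serpin B5 protein, out of 19114 targeted genes and 77441 guides in all. The genes were taken by name: 6 of the SAGA core, 5 of the acetyltransferase module, 4 of the deubiquitinase module and 5 that belong to ATAC and not to SAGA. Only 3 of them, TADA2B, TADA2A and ZZZ3, were also in the smaller TF-focused library, with 14 of its 8739 guides.

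The cells were AsPC-1, a human pancreatic cancer line, made to express Cas9 and infected either with a genome-wide guide library or with one aimed at the DNA-binding domains of transcription factors. On day 8 after infection they were fixed and an antibody was used to stain Serpin B5, the product of SERPINB5 and a readout of the transcription factor KLF5, for sorting into Serpin B5 low, bulk and high cells. Each bin gave 1 sequenced library per screen, and the TF-focused library had a second pair of low and bulk counts. No bin had a replicate library and no untreated arm was included, so that non-targeting guides inside the same pools were the control, and all cells shared the line, the Cas9 and the day. A knockout that lowers Serpin B5 makes its guides richer in the low bin and poorer in the high bin.

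SAGA is a large coactivator that bridges activators at enhancers and promoters to the basal transcription machinery and modifies chromatin on the way. Its core of histone-fold and scaffold proteins holds together an acetyltransferase module, which acetylates histone H3 through KAT2A or its paralog KAT2B, and a deubiquitinase module, which takes ubiquitin off histone H2B through USP22. ATAC is a separate complex that shares the acetyltransferase, TADA3 and SGF29, but uses TADA2A where SAGA uses TADA2B and has subunits of its own. A comparison of modules therefore sets genes found in one complex against genes found in both.

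Guide counts were scaled between bins by median ratios, and each guide was given the log2 ratio of its scaled counts in 2 bins, with a pseudocount of 5, centred on the median of the gene-targeting guides. A gene's score was the mean over its guides, given with the SD over guides, so that a positive low versus high score means guides richer in the low bin. A gene was called when its score was at least 1 in size, a 2-fold change, and all of its guides had the same sign. With 1 library per bin there was no test and no p-value, and guides to 1 gene share their target, so the SD describes guides and not repeats of the sort. Total reads were 102155005 for low, 96310376 for bulk and 90421905 for high cells of the genome-wide screen. All 80 guides passed the count filter, with 40 to 7000 counts each. As checks of the readout, SERPINB5 itself scored 7.08 ± 1.29 and KLF5 4.70 ± 1.19, the first and second of 19113 scored genes.

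Among the 20 member genes, guides to most SAGA subunits were richer in the Serpin B5 low cells than in the high cells. Guides to the ATAC-specific subunits were not. In low versus high, 10 of the 20 members were called with more guide reads in the low bin, against 1.03% of all genes scored, and none richer in the high bin, where 0.476% of all genes were called. The 10 were TADA1, TAF5L, TAF6L and SUPT20H of the core, TADA2B, TADA3, CCDC101 and KAT2A of the acetyltransferase module, and ATXN7L3 and USP22 of the deubiquitinase module. None of the 5 ATAC-specific genes was called. The 20 members were chosen with earlier results of these data known, so their comparison with all genes is a description and not a test. The module medians were 1.91 for the core, 1.68 for the acetyltransferase module, 1.03 for the deubiquitinase module and -0.09 for the ATAC-specific genes, beside 0.000973 over all genes. The core and acetyltransferase medians differed by less than the SD over their members, which was 1.16 and 1.14. Over the genes of these modules the scores ran from 0.04 for KAT2B to 3.18 for TADA1, whereas the deubiquitinase scores stayed between 0.62 and 1.48. The ATAC-specific scores lay between -0.59 and 0.17. The lowest deubiquitinase gene, ATXN7, ranked 435 of the 19113 scored genes, and the highest ATAC-specific gene, MBIP, ranked 3068. Many genes of the library thus scored above all ATAC-specific genes.

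In the core, TADA1 had the highest score of all 20 genes, ahead of TADA2B by less than the SD over guides. TADA1, at chr1:166856510-166876264 on hg38, encodes the histone-fold subunit that pairs with TAF12. Its 4 guides had normalized counts of 3617, 1071, 1523 and 5538 in the low bin, 1982, 439, 462 and 2316 in the bulk and 799.9, 49.2, 112 and 941 in the high bin. Every guide was highest in low and lowest in high, and the ratios between these bins were 2.17, 4.31, 3.70 and 2.55. The score of 3.18 ± 1.00, a fold of 9.09, was the third highest of all genes, after SERPINB5 and KLF5. The second of these guides had only 46 reads in the high bin, with an exact Poisson 95% interval of 33.7 to 61.4. That interval covers counting error only, since the reads come from PCR without molecular identifiers.

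TAF6L and TAF5L are SAGA's own versions of the TFIID subunits TAF6 and TAF5. For TAF6L, at chr11:62771357-62787342, the guides had 3540.4, 2196, 3725 and 2568 normalized counts in low, 1411, 1519, 1701 and 1308 in bulk and 557, 497, 444 and 534 in high. Its score was 2.53 ± 0.42, rank 8, and its guides agreed more closely than those of any other called core gene. For TAF5L, at chr1:229593134-229626122, the normalized counts were 1349, 1815, 1181 and 2316 in low, 1051, 1593, 529 and 1107 in bulk and 783, 1243, 229.9 and 185 in high. The last pair of guides moved far more than the first pair: the ratios were 0.78, 0.55, 2.34 and 3.61, and the score was 1.82 ± 1.43. All 4 TAF5L ratios nevertheless lay above the central 95% of the control guides, which ran from -0.28 to 0.33.

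SUPT20H, at chr13:37009312-37059713, encodes the SPT20 scaffold subunit of the core. Its guides held 1487, 4151, 4330.3 and 3759 normalized counts in low, 998, 2003, 2618 and 1281 in bulk and 535, 806, 2148 and 422 in high, a score of 1.99 ± 0.95. The third guide was depleted least from the high bin. SUPT7L, which encodes the SPT7-like subunit that pairs with TAF10, was not called: its guides had 3042, 2534, 1987 and 526 normalized counts in low, 2662, 2129, 2041 and 439 in bulk and 2196, 1739.8, 2033 and 249 in high. Of these, 3 were above the control range and the third stood at -0.03, for a score of 0.51 ± 0.45. SUPT3H, the SPT3 homolog through which SAGA contacts the TATA-binding protein, was closest to 0 of the core genes. Its guides had 546, 1148, 560.4 and 824 normalized counts in low, 606, 1043, 626 and 763 in bulk and 387, 1183, 668 and 582 in high, and its score of 0.17 ± 0.38 was smaller than the SD over its guides. The SUPT3H guides were split, with 2 above the control range and 2 inside it. Thus 4 of 6 core genes were called, and the other two had guides on both sides of 0.

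In the acetyltransferase module, TADA2B, the adaptor that ties the enzyme to SAGA and is absent from ATAC, came close to TADA1. TADA2B lies at chr4:7041899-7057952. Its guides had 1868, 6582, 693 and 1499 normalized counts in low, 941, 2303, 260.3 and 659.6 in bulk and 399.9, 571, 42.8 and 222 in high. The order low, bulk, high held for each guide, with a score of 3.08 ± 0.75, rank 4, and a fold of 8.46. CCDC101, the older name of SGF29, reads methylated histone H3 and lies at chr16:28553915-28591790. Here the guides had 3384, 4142, 2378 and 3283 normalized counts in low, 1767, 2449, 1236 and 1856 in bulk and 604, 1399, 332 and 774 in high, for a score of 2.24 ± 0.54, rank 13. CCDC101 is shared with ATAC, so its knockout touches both complexes.

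KAT2A, also called GCN5, is an acetyltransferase used by both complexes and lies at chr17:42113111-42121367. Its guides had 2309, 2151, 1554 and 1079.5 normalized counts in low, 1435, 1388, 985 and 864 in bulk and 606, 577, 371 and 589 in high. The score was 1.68 ± 0.55, with 1.92, 1.89, 2.05 and 0.87 as the 4 ratios. KAT2B, or PCAF, is the paralog that can take its place. The KAT2B guides had 2729.8, 895, 1241 and 577 normalized counts in low, 2816, 988, 1175 and 634 in bulk and 2493, 1015, 1348 and 456 in high, a score of 0.04 ± 0.24. The lowest guide ratio for KAT2A was 0.87, and the highest for KAT2B was 0.34, which lay just above the control range. The screen measured neither how well these guides cut nor the level of either protein. TADA3, the adaptor common to both complexes, at chr3:9779967-9793011, had 1975, 1061, 1368 and 1419.9 normalized counts in low, 1539.8, 689, 792 and 1207 in bulk and 999.9, 383, 385 and 1160.3 in high. Its score of 1.14 ± 0.66 was the lowest of the 10 called, and its last guide, at 0.29, fell inside the control range. Under summed counts, and without its strongest guide, TADA3 lost the call.

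The deubiquitinase genes scored in the same direction, with a median below that of the core by less than the SD over the core genes. ATXN7L3, the adaptor needed for the activity of USP22, lies at chr17:44191805-44200113. Its guides had 1712, 2127, 393 and 747 normalized counts in low, 1079, 1055, 250.3 and 708 in bulk and 727, 534, 106 and 413 in high. All 4 were above the control range, with a score of 1.48 ± 0.53. USP22, the ubiquitin protease itself, at chr17:20999596-21043760, had 2484, 1073, 1222 and 2001 normalized counts in low, 1527, 766, 1247 and 1460.4 in bulk and 710.1, 415, 1175 and 497 in high. Its score was 1.30 ± 0.87: the third guide, at 0.06, was inside the control range, while the others ranged up to 2.00. ATXN7L3, USP22 and TADA3 lost the call at a threshold of 1.5, or when low cells were set against bulk and high cells together, and the 7 other called genes kept it.

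ENY2 and ATXN7 were the first genes outside the call. ENY2 is a small subunit that SAGA shares with an mRNA export complex. The ENY2 guides had 1334, 1566, 1139 and 479.6 normalized counts in low, 1344, 1336, 912 and 412 in bulk and 1348, 925, 657 and 171 in high, and the ratios -0.01, 0.76, 0.79 and 1.46 gave a score of 0.75 ± 0.60. ATXN7, which anchors the deubiquitinase to the rest of SAGA, had 1161, 1132, 1391 and 1087 normalized counts in low, 1172, 1046, 1107 and 939 in bulk and 812, 760.3, 916 and 631 in high. Its guides agreed closely with each other, at 0.62 ± 0.11, and all 4 lay above the control range, so that it missed the call by size alone. ATXN7 has paralogs, and of these ATXN7L1 scored 0.21 ± 0.22 and ATXN7L2 0.11 ± 0.07.

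The ATAC-specific genes did not share the shift. TADA2A, the ATAC counterpart of TADA2B, had 1586, 894, 471 and 607 normalized counts in low, 1737, 917, 664 and 643 in bulk and 1829.7, 916, 487 and 648 in high. Every TADA2A guide was inside the control range, with a score of -0.09 ± 0.08. YEATS2, whose YEATS domain reads acylated histone H3, had 396, 1674, 677 and 638 normalized counts in low, 414, 1910.4, 809 and 521 in bulk and 540.0, 1838, 821 and 728 in high. Its score of -0.26 ± 0.13 leaned to the high bin, and 1 of its guides was below the control range. ZZZ3, a zinc finger subunit that binds the histone H3 tail, had 898, 1206, 1173 and 686 normalized counts in low, 852, 1207, 1133 and 688 in bulk and 726, 1404, 1095 and 771 in high, for a score of 0.00 ± 0.24. MBIP, first described as an inhibitor of a MAP kinase kinase kinase, had 1107, 657, 1745 and 530.4 normalized counts in low, 1173, 793, 1596 and 570.2 in bulk and 1006, 505, 1535 and 542 in high, a score of 0.17 ± 0.17. Among these 4 genes, 1 guide of MBIP exceeded the control range in the direction of the SAGA genes.

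DR1 had the score furthest from 0 of the ATAC-specific genes, towards the high bin. DR1 also forms the repressor NC2, which with DRAP1 blocks assembly of the basal machinery on TATA-binding protein. Its guides had 587, 1169, 746 and 1852 normalized counts in low, 687, 1214, 799.7 and 2025 in bulk and 942, 1695, 1104 and 2751 in high. All 4 were richest in the high bin and below the control range, with nearly equal ratios of -0.68, -0.53, -0.56 and -0.57. The score of -0.59 ± 0.06 was too small for a call, and only 272 genes scored lower. DRAP1, its partner in NC2, scored -0.19 ± 0.40 with guides on both sides of 0.

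Guide by guide, 51 of the 60 guides to the 15 SAGA members lay above the control range in low versus high and 0 below it. These members include subunits shared with ATAC, but not the SAGA subunits among the 19 further pathway genes described below. For those 19 genes, 21 of 76 guides were above the control range and 10 below it. Over all gene-targeting guides, 12.2% were above and 13.6% below. By module, 21 of 24 core, 16 of 20 acetyltransferase and 14 of 16 deubiquitinase guides were above. For the ATAC-specific genes the count was 1 of 20, with 5 below, 4 of which were those of DR1. The full order, low over bulk over high, was met by 49 of the 60 SAGA guides and 3 of the 20 ATAC-specific ones. It was met by 23.5% of all gene-targeting guides and 19.8% of the control guides.

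Set against the bulk, the called SAGA genes were depleted from the high bin more than they were enriched in the low bin, on the log2 scale. These comparisons share libraries with low versus high and with each other, so they divide the same shift and do not repeat it. In low versus bulk only TADA1, at 1.28 ± 0.35, and TADA2B, at 1.27 ± 0.23, were called, against 0.0785% of all genes. TAF6L, at 0.99 ± 0.34, fell just short, and no gene of the library was called in the other direction (0%). In high versus bulk 7 genes were called poorer in the high bin, against 0.277% of all genes. They were TADA1 at -1.91 ± 0.82, TADA2B at -1.81 ± 0.54, TAF6L at -1.54 ± 0.29, CCDC101 at -1.37 ± 0.46, TAF5L at -1.13 ± 1.02, KAT2A at -1.11 ± 0.38 and SUPT20H at -1.02 ± 0.57. SUPT20H lost this call with centring on control guides, TAF5L lost it with the median over guides, and both lost it under summed counts and without the strongest guide. The nearest genes outside were USP22, at -0.90 ± 0.61, and ATXN7L3, at -0.88 ± 0.27. None of the 20 was called richer in the high bin, where 0.319% of all genes were, and DR1 came nearest at 0.46 ± 0.02. In low versus bulk the module medians were 0.83 for the core, 0.57 for the acetyltransferase module, 0.29 for the deubiquitinase module and -0.08 for the ATAC-specific genes, beside -0.00368 over all genes. In high versus bulk they were -1.07, -1.11, -0.72 and 0.03 in the same order, beside -0.00539 over all genes.

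The part of the low versus high score that came from low against bulk ranged over the 10 called genes from 30.8% for USP22 to 48.8% for SUPT20H, with 40.1% for TADA1 and 41.2% for TADA2B. Over all 197 genes called in that direction the median was 41.3%, with quartiles of 34.0% and 48.8%. USP22 was below the lower quartile and SUPT20H above the upper one. SERPINB5 and KLF5, at 69.9% and 61.5%, drew more of their score from the low bin than any of the 10. The high bin took a smaller part of the sorted cells than the low bin did, and how the gates set these parts was not tested.

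Paralogs that sit in other complexes gave a set of contrasts within the same libraries. TAF5, the TFIID counterpart of TAF5L, scored 0.27 ± 0.30, with ratios from -0.16 to 0.51, all below the lowest TAF5L ratio of 0.55. TAF6, the counterpart of TAF6L, scored 0.58 ± 0.28, and its highest ratio of 0.94 was under the lowest of TAF6L, 2.13. TAF6 still leaned in the direction of the SAGA genes, with all 4 guides above 0 and rank 477 of 19113 genes. TAF5 and TAF6 are needed for most transcription. Their guides averaged 510.1 and 441 normalized counts in the bulk, against 1069.9 for TAF5L and 1485 for TAF6L. The cause of this difference in counts was not tested. The lowest ratio of TADA2B was 2.21, and the highest of TADA2A was -0.03. USP27X and USP51, other proteases that can use the ATXN7L3 adaptor, scored -0.05 ± 0.35 and -0.19 ± 0.40, but the third USP22 guide lay within their ranges. These contrasts are descriptions over 4 guides a gene. How often the guides of a called gene lie above those of any other gene was not counted.

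Of 19 further genes of the pathway (TRRAP, shared TFIID and splicing subunits, paralogs, and ATAC or NC2 partners), 1 was called richer in the low bin and none in the high bin, beside 1.03% and 0.476% of all genes. It was TAF12, the histone-fold partner of TADA1, with 2682, 1199, 1931 and 1081 normalized counts in low, 983, 431, 1804 and 866 in bulk and 364, 176, 1686 and 790.3 in high. Only the first pair of TAF12 guides moved far, and the score was 1.56 ± 1.43. TAF10, the partner of SUPT7L, had all 4 guides above the control range at 0.84 ± 0.32, without a call. TAF9 and TAF9B, paralogs that can each pair with TAF6L, scored 0.02 ± 0.13 and 0.06 ± 0.17. TRRAP, the activator-binding giant that SAGA shares with the TIP60 complex, scored 0.40 ± 0.16. The splicing factors SF3B3 and SF3B5, which SAGA also holds, scored -0.19 ± 0.50 and -0.31 ± 0.67, and WDR5, shared by ATAC and other complexes, -0.25 ± 0.25. None of the 19 was called in low versus bulk, where 0.0785% of all genes were called richer in low and 0% poorer, or in high versus bulk, where the shares were 0.319% richer and 0.277% poorer in high. Their median low versus high score was 0.09.

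In the TF-focused library none of the 3 genes was called in any comparison, and its control guides spread more widely than those of the genome-wide screen. One label calls its high library bulk, while the title and the count column call it high, and its second pair is labelled genome-wide but holds guides of the TF-focused library. In low versus high 1.18% of its 1439 scored genes were called, in low versus bulk 2.02%, in high versus bulk 0.0695% and in the second low and bulk pair 1.11%. The central 95% of its 49 control guides that passed the count filter ran from -1.22 to 1.39 in low versus high. Their ratios also rose with guide abundance, with a Spearman correlation over control guides of 0.55 in low versus high, beside -0.16 over the 994 genome-wide ones. Abundance was the mean over the bins, so the low and high counts entered both the ratio and the abundance. This correlation is across guides of the same libraries and is a description.

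The TADA2B guides, 3 in this library, had 2018, 5930.5 and 4037 normalized counts in low, 1467, 3092 and 2606 in bulk and 1709, 3296 and 2164 in high. All were richest in low, but bulk and high did not differ in a common direction, and no ratio left the control range. The scores were 0.67 ± 0.37 in low versus high, rank 16 of 1439, 0.67 ± 0.24 in low versus bulk and 0.03 ± 0.25 in high versus bulk. In the second pair the low versus bulk score was 0.54 ± 0.18. After subtraction of the median ratio of equally abundant guides, an alternative chosen after seeing the data, low versus bulk was 0.386 and 0.328 in the 2 pairs. KLF5 led this library with 1.80 ± 1.39 in low versus high. In high versus bulk KLF5 itself scored only -0.14 ± 0.40, with 2 of its 6 guides above 0.

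TADA2A and ZZZ3 leaned in this library to neither side beyond their guides' spread. The 5 TADA2A guides had 3304, 10033, 1109.9, 638 and 794 normalized counts in low, 2204, 4769, 1899, 1379.8 and 2810.5 in bulk and 2365, 6027, 1999, 1367 and 1923 in high, with a low versus high score of -0.39 ± 0.94. Of these, 2 guides were richer in low than in high and 3 were poorer, and under summed counts the score turned to 0.0613. For ZZZ3 the 6 guides had 1930.3, 4135, 953, 1008, 723 and 546 normalized counts in low, 1805, 2354, 1654, 2266, 1629.6 and 805 in bulk and 1557, 3719.6, 1365, 2219, 1784 and 695 in high, a low versus high score of -0.47 ± 0.65. The lowest low versus high ratios, -1.27 for a TADA2A guide and -1.29 for a ZZZ3 guide, lay below the control range. The highest, 0.74 and 0.31, lay inside it. In the second pair low versus bulk was -0.43 ± 1.00 for TADA2A and -0.35 ± 0.68 for ZZZ3. The low versus bulk ratios of the 2 pairs correlated at r = 0.97 over 8673 gene-targeting guides, and the labels do not call the pairs replicates. Whether both came from the same sorted cells was not tested, and they were not counted as independent. The other members, among them all core and deubiquitinase genes, had no guides in the TF-focused library.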

How the data were processed

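Guide counts from 8 sorted libraries in 3 tables were analysed, with 1 library per bin. According to the study's methods, guides were amplified from genomic DNA in a single PCR step, sequenced and analysed with MAGeCK. The deposited counts were raw reads per guide, and no counts of other samples were used. The members and lists were chosen with earlier results of these data known. Guides with a mean normalized count of at least 30 over the bins were kept. Scaling used median ratios over guides, the pseudocount was 5, and genes needed 2 guides. Named genes were the 20 members, SERPINB5, KLF5, the pathway genes called in any genome-wide comparison, and TAF5, TAF6 and TRRAP; other pathway genes were named after their values were seen. The score was checked on simulated counts in which all guides of a gene shared the same fold. That check does not cover genes with unequal guides or scores close to the threshold. Calculations used Python 3.11.15, numpy 2.4.6, pandas 2.3.3 and scipy 1.17.1. Alternatives were other scalings, centrings, pseudocounts, filters, summaries and thresholds. Mean depth was 1168 to 1319 reads per guide in the genome-wide and 1044 to 4352 in the TF-focused libraries. TF-focused genes were read from guide names, since the deposited gene column shortens the name for 79 guides. The TF-focused high sample is labelled bulk in its description and high in its title and column, and the title was followed. The second pair carries a genome-wide label but holds TF-focused guides. The tables give no guide sequences, so only gene positions, from GENCODE release 44 on hg38, are printed. CCDC101 was placed as SGF29.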

Additional observations from a re-analysis of the deposited data

How the results depend on the processing

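No paired analysis was possible because each bin had 1 library and the result comes from no test. The count of 10 members called in low versus high ran from 7 to 11 over 14 alternatives, with 0.429% of all genes called at a threshold of 1.5 (7 members) and 2.7% at 0.5 (11 members). A threshold of 0.5 called 1 member, DR1, richer in the high bin, where the main threshold called 0. The share of all genes called in that direction was 1.72% at 0.5 and 0.476% at the main threshold. In low versus bulk the count of 2 became 8 at a threshold of 0.5, where 0.947% of all genes were called, and 0 at 1.5, where 0.0105% were, beside 0.0785% in the main setting. In high versus bulk the count of 7 (0.277% of all genes) became 3 at a threshold of 1.5 (0.0471%). With low set against bulk and high together, the deubiquitinase median went from 1.03 to 0.596, the acetyltransferase median from 1.68 to 1.02 and the core median from 1.91 to 1.24, with TADA1 at 1.92 and TADA2B at 1.90, as follows from mixing the less shifted bulk cells in. Of 124 module medians under alternatives, 123 stayed within 1 SD over members, the deubiquitinase value above being the exception. Of 620 member scores under alternatives, 612 stayed within 1 SD over guides, 8 moved further, and 0 called scores changed sign. In the TF-focused library TADA2B in low versus bulk was 0.386 with abundance classes, and in the second pair 0.328 with abundance classes and 0.803 when centred on control guides. TADA2A, not called there, turned from negative to positive under summed counts, to 0.0613 in low versus high, 0.118 in low versus bulk and 0.0149 in the second pair. The cause was not tested. Of 80 member guides, 52 were above the central 95% and 50 above the central 99% of control guides. The smallest count behind a member guide was 40, and the sort itself had no repeat.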
